A study of Mus musculus with 4 samples.

Results

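The genes described here are the potassium channel genes whose mouse symbols begin with Kcn. They were found by matching the gene identifiers of the counts table to mouse symbols, and names of antisense or opposite-strand transcripts were left out. The match gave 94 genes of the 78334 in the table. They comprise 30 pore-forming subunits of voltage-gated (Kv) channels, 10 silent Kv subunits, 17 auxiliary subunits, 8 channels opened by calcium or sodium (or related to these), 15 inward rectifiers (Kir) and 14 tandem-pore (K2P) channels.

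Potassium channels let potassium leave the neuron, hold its membrane near rest, end each action potential and set how fast it can fire again. Kv1 channels (Kcna) sit along axons and at the axon's initial segment, where they limit repetitive firing. Their beta subunits (Kcnab) bind on the inner side of the pore and alter its gating and surface delivery. Kv3 channels (Kcnc) close quickly and permit fast firing, Kv4 channels (Kcnd) carry a transient current that is shaped by the calcium-binding KChIP proteins (Kcnip), and Kv7 channels (Kcnq) carry the slow M current. Kir and K2P channels act mainly near the resting potential.

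Messenger RNA was counted in retinal ganglion cells, whose axons run in the optic nerve, of wild-type mice of both sexes. The group named first throughout received an anti-miR132-3p shRNA, directed against the microRNA miR-132-3p, and the control group a scramble shRNA. Both were carried by adeno-associated virus of serotype 2 with an mCherry reporter, injected into the eye at 8 weeks of age, and every animal of both groups then had its optic nerve crushed 2 weeks later. Cells, called anti-miR132-3p cells and scramble cells below, were taken 2 weeks after the crush. Retinas were pooled, 10 per condition. Panning on Thy1 and sorting on mCherry gave about 5000 cells for each replicate. About 40% of ganglion cells were transduced.

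Each group had 2 libraries, with totals of 1732416 and 1731199 counts (anti-miR132-3p shRNA) and of 1845090 and 1846637 counts (scramble shRNA). The paired libraries differed by no more than sampling noise. A chi-square test of their counts gave 1.00 per degree of freedom within the anti-miR132-3p pair (p = 0.49) and 1.02 within the scramble pair (p = 0.095), against 4.01 to 4.03 between groups. A pair was therefore treated as a single sample, with n = 1 per group. There is no SD, and differences have no replicate check. The table names the control columns only by mCherry, which both vectors express, so they were taken as scramble because the other columns name miR132. Every direction below depends on that. The mature microRNA is not measured by libraries of polyadenylated RNA, and its gene Mir132 had 0 counts in all 4 libraries.

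The microRNA and the designed inserts define the comparison and are shown 5′ to 3′. Capitals mark the seed of miR-132-3p (bases 2 to 8), which pairs with messenger RNA, and its complement in the insert. The mature sequence is that of RefSeq, at chr11:75173723-75173744 on the plus strand of GRCm38.p6. The scramble insert does not hold the complement of the seed.
miR-132-3p: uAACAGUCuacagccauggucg
anti-miR132-3p insert: cgaccatggctgtaGACTGTTa
scramble insert: tcgagggcgacttaaccttagg

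Kcn transcripts as a group were more abundant in anti-miR132-3p cells than in scramble cells, and among genes with enough counts to be tested the largest folds were those of the Kv1 subunits Kcna4 and Kcna5 and of the Kv1 beta subunit Kcnab2. All 94 genes together reached 3800 CPM (counts scaled to a common library size, after TMM normalisation) in anti-miR132-3p cells and 3040 CPM in scramble cells, a fold of 1.25 (95% interval 1.22 to 1.28). They held 0.378% of all counts in anti-miR132-3p cells and 0.297% in scramble cells. Intervals of folds are exact (Clopper-Pearson) on counts summed over a pair, and cover counting error only.

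The counts of 41 Kcn genes sufficed for the test, edgeR's quasi-likelihood test with Benjamini-Hochberg adjustment over 11427 genes. A gene is called here where its adjusted p is under 0.05. Of the 41, 16 were called higher (39.0%), against 13.5% of all genes tested, and 1 was called lower (2.44%), against 10.4% of all genes tested. Calls in either direction thus numbered 17 of 41, against 23.8% of all genes tested. The calls are about the reads in these libraries and not about the conditions. Whichever library was left out, 0 Kcn genes were called, while 15 to 18 had an unadjusted p under 0.05. DESeq2 called 8 higher and 0 lower. By size alone, 10 Kcn genes were at least 1.5-fold higher, against 12.6% of all genes tested, and 2 were at least 1.5-fold lower, against 5.12%. At least 2-fold, 1 was higher, against 4.30% of all genes tested, and 0 were lower, against 0.945%. Of the 41 tested genes 33 had a fold above 1. The median log2 fold change was 0.30 over the tested Kcn genes and -0.00 over all genes tested.

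**Figure D1:**
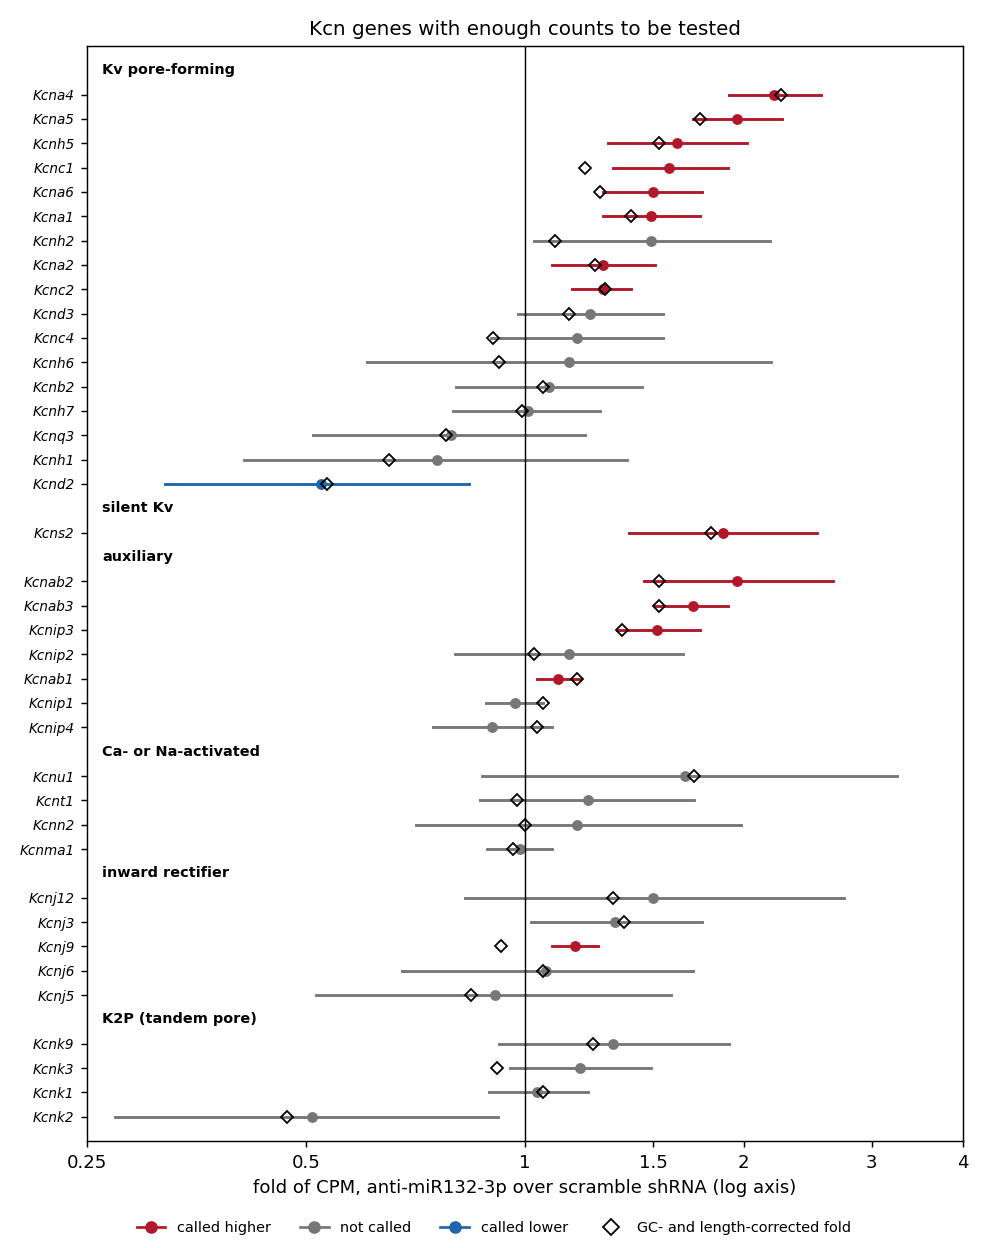
Fold of CPM, anti-miR132-3p over scramble shRNA, on a log axis for 38 of the 41 tested Kcn genes, grouped by channel class. Filled points with bars are the fold of summed counts with its exact 95% interval (counting error only), red where called higher, blue where called lower and grey where not called, and open diamonds are folds corrected for GC content and length. Kcna4 has the largest fold, 2.2, and Kcnd2 is the only gene called lower among them.

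All 5 tested Kcna genes, the pore-forming subunits of Kv1 channels, were called higher, against 13.5% of all genes tested. The Kcna subfamily of 8 summed to 669 CPM in anti-miR132-3p cells and 398 CPM in scramble cells, a fold of 1.68 (1.57 to 1.80). Kcna4, a subunit that inactivates rapidly, had 299 and 305 counts in anti-miR132-3p cells, against 150 and 137 counts in scramble cells, or 175 CPM against 79.5 CPM. Its fold of 2.2 (1.91 to 2.55) was the largest of the tested Kcn genes. Kcna5, a delayed rectifier best known from heart muscle, had 286 and 276 counts in anti-miR132-3p cells and 152 and 148 counts in scramble cells, a fold of 1.96 (1.70 to 2.26). For both genes the counts of either anti-miR132-3p library lay well above those of either scramble library. Called genes tend to separate in this way, so a lack of overlap, here and below, is a description and no added support.

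Kcna1, Kcna2 and Kcna6 are the low-threshold axonal subunits, and their differences were smaller. Kcna1 had 199 and 198 counts in anti-miR132-3p cells against 150 and 129 counts in scramble cells, a fold of 1.49 (1.28 to 1.74). Kcna6 had 199 and 196 counts in anti-miR132-3p cells against 158 and 118 counts in scramble cells, a fold of 1.5 (1.28 to 1.75). Kcna2 had 169 and 174 counts in anti-miR132-3p cells against 141 and 139 counts in scramble cells, a fold of 1.28 (1.09 to 1.51). The groups did not overlap for any of the 3 genes, and the scramble libraries spread most for Kcna6. Kcna5, Kcna1 and Kcna6 neighbour each other on chromosome 6 in the GENCODE M21 annotation. Exons of Gm26673, an antisense gene with 3 counts in all in anti-miR132-3p cells and 1 in scramble cells, cover 39.6% of those of Kcna6, and the strand setting of the counting is not given in the sources used here.

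The 3 Kcnab genes, which encode the Kv1 beta subunits, were also all called higher, against 13.5% of all genes tested. Together the Kcnab genes reached 811 CPM in anti-miR132-3p cells and 645 CPM in scramble cells (fold 1.26, 1.19 to 1.33). Kcnab2, whose product promotes the delivery of Kv1 channels to axons, had 63 and 72 counts in anti-miR132-3p cells against 35 and 37 counts in scramble cells, a fold of 1.96 (1.46 to 2.65). Kcnab3 had 388 and 386 counts in anti-miR132-3p cells against 217 and 261 counts in scramble cells, a fold of 1.70 (1.51 to 1.90). Kcnab1, which confers fast inactivation on Kv1 channels, was the most counted of the family and differed least. It had 977 and 908 counts in anti-miR132-3p cells and 908 and 870 counts in scramble cells, a fold of 1.11 (1.04 to 1.19). Its raw counts met at 908, but its CPM did not overlap between groups, at 566 and 527 CPM in anti-miR132-3p cells and 504 and 481 CPM in scramble cells. Kcnab3 shares 5.13% of its exon length with the antisense gene Kcnab3os, which had 5 counts in all in each group.

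Among the other pore-forming Kv subunits, members of the Kv3 and EAG families were among those called higher and the Kv4 subunit Kcnd2 was called lower. The 4 Kcnc genes, of the fast Kv3 channels, summed to 436 CPM in anti-miR132-3p cells and 327 CPM in scramble cells (fold 1.33, 1.23 to 1.44). Kcnc1 had 153 and 148 counts in anti-miR132-3p cells against 106 and 93 counts in scramble cells, a fold of 1.58 (1.32 to 1.90). Kcnc2 had 530 and 496 counts in anti-miR132-3p cells against 426 and 416 counts in scramble cells, a fold of 1.28 (1.16 to 1.40). Neither gene overlapped between groups. Kcnc4, with 60 and 56 counts in anti-miR132-3p cells against 52 and 51 counts in scramble cells, was not called (fold 1.18, 0.897 to 1.55).

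Kcnh5, an ether-a-go-go (EAG) channel subunit of neurons, had 105 counts in each anti-miR132-3p library against 71 and 65 counts in scramble cells, a fold of 1.62 (1.30 to 2.02). Both anti-miR132-3p libraries of this gene lay above both scramble libraries. The 4 other tested Kcnh genes were not called and ran from a fold of 0.758 for Kcnh1 to 1.49 for Kcnh2. The share of tested Kcnh genes called was 20.0%, near the 23.8% of all genes tested. Kcnb2, a delayed rectifier subunit, had 47 and 50 counts in anti-miR132-3p cells against 51 and 43 counts in scramble cells, a fold of 1.08 (0.805 to 1.45), and the groups overlapped. Kcnq3, an M channel subunit, had 23 and 17 counts in anti-miR132-3p cells against 26 and 27 counts in scramble cells and was not called (fold 0.790, 0.511 to 1.21).

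Kcnd2, a pore-forming subunit of the transient Kv4 current in dendrites and cell bodies, had 15 and 13 counts in anti-miR132-3p cells against 34 and 22 counts in scramble cells. It was 1.91-fold lower (1.19 to 3.12). The groups did not overlap, but the scramble libraries differed among themselves and the level was low, at 8.12 CPM in anti-miR132-3p cells and 15.5 CPM in scramble cells. The other tested Kv4 subunit, Kcnd3, had 82 and 87 counts in anti-miR132-3p cells against 85 and 59 in scramble cells and was not called (fold 1.23, 0.978 to 1.55). Whether Kcnd2 and Kcnd3 differed in response was not tested.

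Of the 4 KChIP genes, which encode calcium-binding partners of Kv4 channels, only Kcnip3 was called. That share was near the 23.8% of all genes tested that were called in either direction. Kcnip3, whose product is also known as a calcium-dependent transcriptional repressor, had 273 and 276 counts in anti-miR132-3p cells against 190 and 187 counts in scramble cells, a fold of 1.52 (1.34 to 1.74). Kcnip1 had 428 and 436 counts in anti-miR132-3p cells against 453 and 480 counts in scramble cells, a fold of 0.970 (0.883 to 1.06). Kcnip4 had a fold of 0.902 (0.747 to 1.09) and Kcnip2 of 1.15 (0.801 to 1.65). In CPM the libraries of the groups overlapped for Kcnip1.

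Silent Kv subunits form no channel alone and modify Kv2 channels. Kcns2 was the only tested member of the 10. It had 64 and 68 counts in anti-miR132-3p cells against 32 and 42 counts in scramble cells, a fold of 1.87 (1.39 to 2.52), and both anti-miR132-3p libraries lay above both scramble libraries. All 10 silent subunits together had 155 counts in anti-miR132-3p cells and 121 in scramble cells, so that Kcns2 held most of them. The rest, untested, had fewer counts in anti-miR132-3p cells. The Kcnf, Kcng and Kcnv subfamilies summed to 1, 15 and 1 counts there, against 2, 18 and 10 in scramble cells. Kcns3 had 6 against 15 counts and Kcns1 had 0 against 2, in the same order of groups.

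Kcnj9, which encodes a subunit of the G-protein-gated inward rectifiers (GIRK) of neurons, was the only one of 5 tested Kcnj genes to be called. That share of 20.0% was near the 23.8% of all genes tested. Kcnj9 had 794 counts in each anti-miR132-3p library, against 713 and 711 counts in scramble cells, a fold of 1.17 (1.09 to 1.26). The libraries of a group were nearly equal, but the direction turned when folds were corrected for GC content and length (fold 0.927). The other GIRK genes Kcnj3, Kcnj5 and Kcnj6 had folds of 1.33 (1.02 to 1.75), 0.908 (0.516 to 1.59) and 1.07 (0.677 to 1.70) and were not called.

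None of the 4 tested Kcnk genes, the K2P leak channels, was called. The same held for the 4 tested channels opened by calcium or sodium, or related to these. Over all genes tested, 23.8% were called in either direction. Kcnk1, the most abundant K2P transcript, had 176 and 151 counts in anti-miR132-3p cells against 159 and 169 counts in scramble cells, a fold of 1.04 (0.893 to 1.22). Kcnma1, the large-conductance calcium-activated channel, had 323 and 378 counts in anti-miR132-3p cells against 378 and 367 counts in scramble cells, a fold of 0.985 (0.887 to 1.09). The groups overlapped for both genes. Kcnk2, a mechanically and lipid-gated leak channel, had 8 and 10 counts in anti-miR132-3p cells against 17 and 20 counts in scramble cells. It was 1.96-fold lower (1.09 to 3.66), was not called, and was called lower after the correction for GC content and length. An overlapping antisense gene, A430027H14Rik, covers 12.2% of its exon length.

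**Figure D2:**
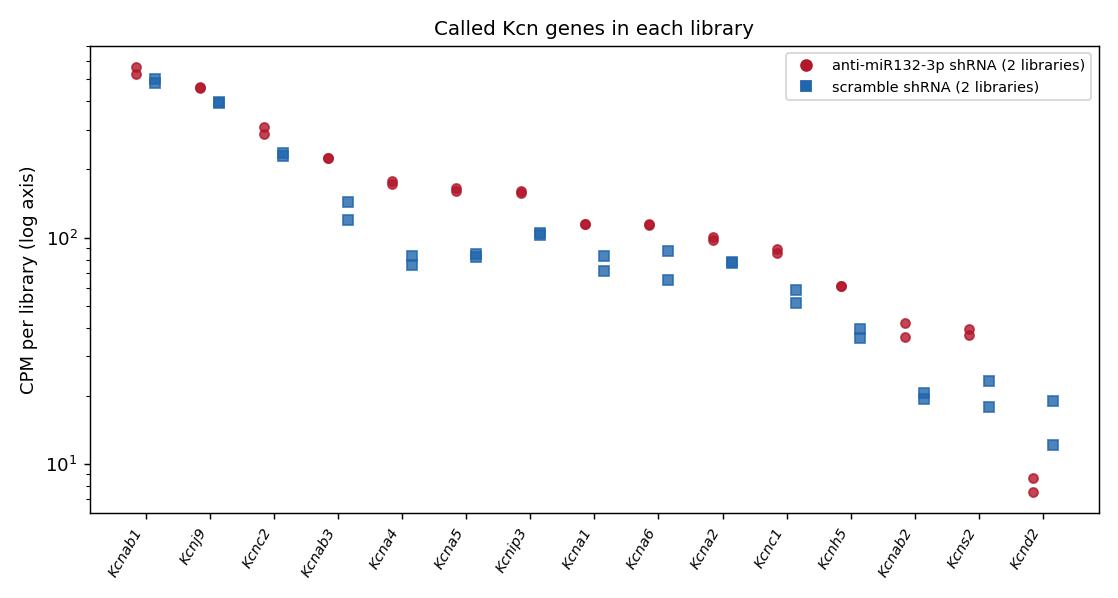
CPM per library, on a log axis, of 15 of the called Kcn genes, ordered by level (red circles, 2 libraries in anti-miR132-3p cells; blue squares, 2 libraries in scramble cells). The genes were chosen as called, so their separation is a description. The red points of Kcna4 lie at 173 and 177 CPM and its blue points at 83.2 and 75.8 CPM, while those of Kcnd2 lie at 8.70 and 7.55 CPM (red) and 18.9 and 12.2 CPM (blue).

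**Figure D3:**
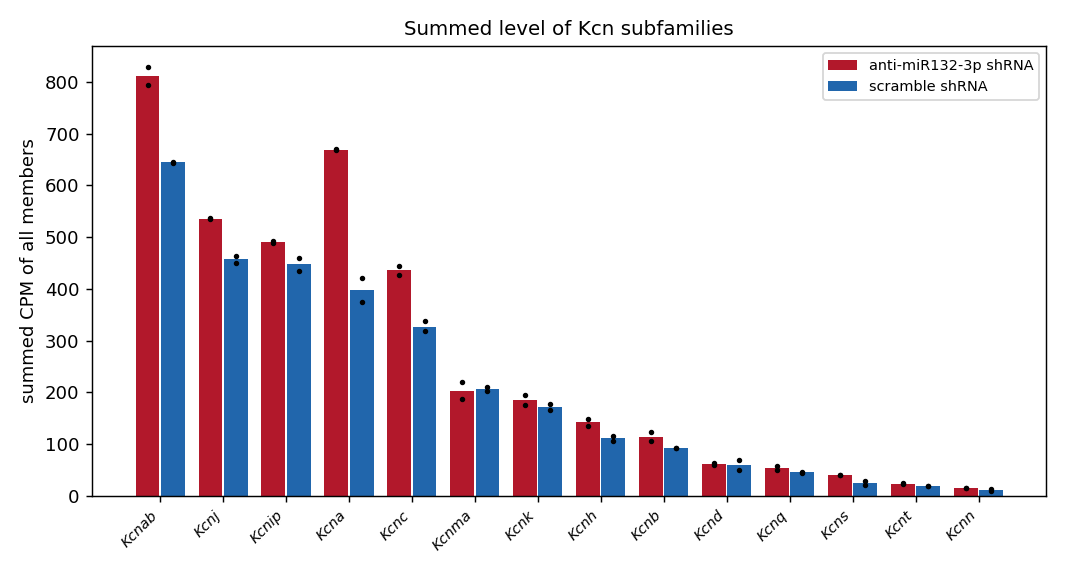
Summed CPM of all members of each of the larger Kcn subfamilies, red bars for the anti-miR132-3p shRNA and blue bars for the scramble shRNA (pair summed, axis from 0), with a dot for each library and no error bar since n = 1 per group. The Kcna bars stand furthest apart in proportion, at 669 and 398 CPM, and those of Kcnma are level, at 203 and 206 CPM.

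Levels can be compared between genes only per length, here as CPM per kb of annotated exon in GENCODE M21. On that scale the highest Kcn level was that of Kcnj9, 107 in anti-miR132-3p cells and 92.0 in scramble cells. Kcnab3 followed at 78.4 in anti-miR132-3p cells and 46.2 in scramble cells, then Kcnab1 at 63.6 and 57.3 and Kcna5 at 57.0 and 29.0, in the same order of groups. The order was not the same in both groups, since Kcnab1 stood above Kcnab3 in scramble cells. The highest of the other classes were Kcnk1 among K2P channels, at 42.4 in anti-miR132-3p cells and 40.7 in scramble cells, Kcnma1 among channels opened by calcium or sodium, at 12.0 and 12.2, and Kcns2 among silent subunits, at 6.86 and 3.67, in the same order. With 1 sample per group, the order of neighbours was not tested.

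Fold changes moved with transcript length and GC content over all genes tested, so each Kcn fold was also computed with both fitted per library. Over 11273 genes, which share these libraries and are no replicates, the Spearman correlation of the log2 fold change was 0.28 with length and 0.24 with GC content. Over the 41 Kcn genes it was -0.02 with length and 0.34 with GC content. The tested Kcn transcripts were longer and richer in GC than others, with medians of 4.22 kb and 51.2% against 3.26 kb and 49.1% for all genes tested. After the correction 12 Kcn genes were called higher, against 10.7% of all genes tested, and 1 lower, against 7.33%. All 12 were among the 16 called before. Kcnc1 and Kcnj9 were among those that lost their call, and the gene called lower was Kcnk2, with a corrected fold of 0.470. Kcnd2 was no longer called, although its corrected fold of 0.535 was close to the 0.524 before. The median log2 fold change of the Kcn genes was 0.15 with the correction, against 0.03 for all genes tested. The Kcna median was 0.58 before and 0.48 after it, and Kcna4 kept a fold of 2.25.

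**Figure D4:**
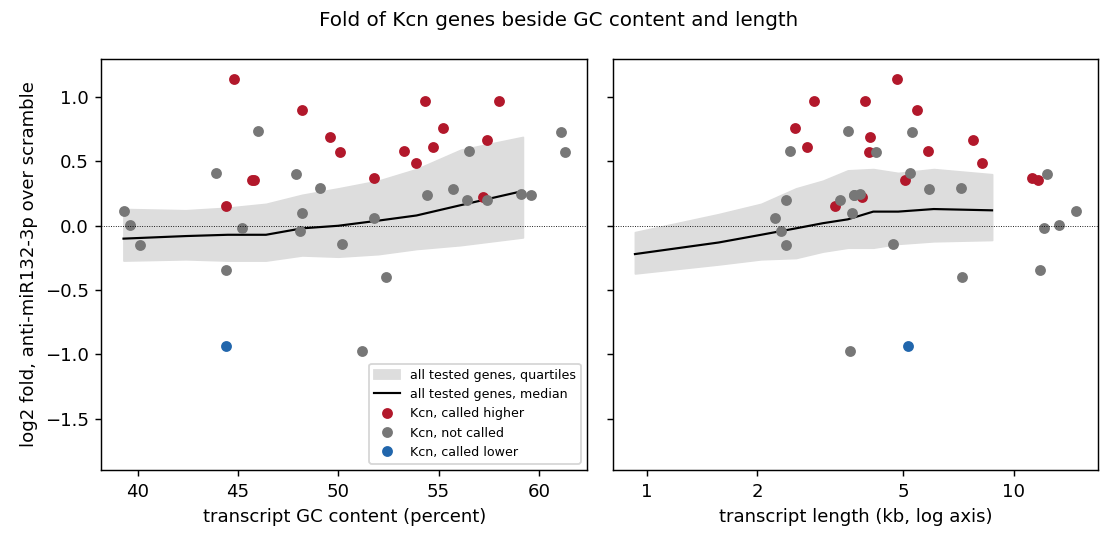
Log2 fold change of each tested Kcn gene (points, coloured by call) against transcript GC content in percent (left) and transcript length in kb on a log axis (right), over the median (line) and quartiles (grey) of all tested genes in 10 equal bins of each property. The median line climbs from -0.10 at the lowest to 0.27 at the highest GC content, and Kcna4 lies far above it.

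Messenger RNAs repressed by a microRNA often carry matches to its seed in the 3′ untranslated region. The complement of the miR-132-3p seed, GACTGTT on the transcript's strand, was found in the 3′ untranslated region of 11 of the 41 tested Kcn genes (26.8%), against 14.3% of the 10383 tested genes with such a region. The Kcn regions were longer, with a median of 2362 bases against 1389 bases. Kcna6 held 3 matches, as many or more being found in 0.299% of those genes. Kcna6, Kcna2, Kcnc1 and Kcns2 were called higher, and the other 7 genes, among them Kcnip4, Kcnma1 and Kcnk2, were not called. The sites of these genes are shown because they are the sequences that the microRNA could pair with. Capitals mark the seed complement, with a final A opposite the first base of the microRNA where there is one, and the sequences are those of GENCODE M21 transcripts.
Kcna6 site 1: ggactgtaGACTGTTgctcga
Kcna6 site 2: actcaaagGACTGTTAacatgt
Kcna6 site 3: accttccaGACTGTTctctct
Kcna2 site: gcaatagtGACTGTTttcttt
Kcnc1 site: ctctttagGACTGTTggagtg
Kcns2 site: cctgtgagGACTGTTtggttt
Kcnip4 site: tacatgtaGACTGTTttgtat
Kcnma1 site: ttaacataGACTGTTAgaaaaa
Kcnk2 site 1: ctctttgtGACTGTTgccggt
Kcnk2 site 2: tgtgcccaGACTGTTtcccct

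The first site of Kcna6 is complementary to the microRNA beyond the seed, over 12 bases in a row, and a run that long was found in 4 of the 10383 genes (0.0385%). The run in Kcnip4 was 11 bases long, and Kcnip4 had a fold of 0.902. Of the 11 tested Kcn genes with a match, 4 were called higher and 0 lower, against 13.5% and 10.4% of all genes tested, and their median log2 fold change was 0.36. With the correction for GC content and length, 3 were called higher and 1 lower (Kcnk2), against 10.7% and 7.33% of all genes tested, and the median was 0.28. Of the 30 without a match, 12 were called higher and 1 was called lower, and the median was 0.27. With the correction these were 9, 0 and 0.11. Kcna4 and Kcna5, with the largest folds, held no match. Whether a site is used was not tested.

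Promoters were searched in RefSeq sequences of GRCm38.p6, 250 bases before to 50 after each gene start, which were at hand for 69 Kcn genes. The cAMP response element TGACGTCA was in 0 of the 69, against 2.03% of all 27018 genes. The core of the interferon-stimulated response element, GAAA, any 2 bases and GAAA again on either strand, was in 5 of the 69 (7.25%), against 3.99% of all genes. The AP-1 element TGANTCA was in 4 of the 69 (5.80%), against 8.98% of all genes. Among genes with a promoter at hand, the interferon element was in 2 of the 11 called higher, Kcnab1 and Kcnc2, in the single gene called lower, Kcnd2, and in 0 of the 16 that were tested and not called. These numbers are too small to compare with the share over all genes. A match of each called gene is shown in capitals, at chr3:64949172-64949201, chr10:112270872-112270901 and chr6:21215363-21215392, all on the plus strand. A further start of Kcnab1 holds 2 overlapping matches, not shown.
Kcnab1: gagggagacaGAAACAGAAAtcaattcaaa
Kcnc2: acagtaatgtGAAAAGGAAAttggatgagg
Kcnd2: tggctctgccTTTCCCTTTCcgggtacaag

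Genes of proteins that bind, cluster or work beside these channels were called in both directions, the lower calls at a share near that of all genes tested. Of 35 such genes 29 could be tested. Calls went higher for 9 (31.0%), against 13.5% of all genes tested, and lower for 4 (13.8%), against 10.4%. The median log2 fold change was 0.13, against -0.00 for all genes tested. Whichever library was left out, 0 were called, and DESeq2 called 3 higher and 2 lower. Adam22, a Kv1-associated receptor for the secreted protein Lgi1, had 765 and 752 counts in anti-miR132-3p cells against 509 and 531 counts in scramble cells, a fold of 1.53 (1.41 to 1.65). Cntn2, a contactin that clusters Kv1 channels beside nodes of Ranvier, had 30 and 35 counts in anti-miR132-3p cells against 16 and 19 counts in scramble cells, a fold of 1.94 (1.27 to 3.02). Neither gene overlapped between groups. All 9 tested genes of the list for Kv1 clustering had a fold above 1, against 49.6% of all genes tested, and 4 of them were called higher, against 13.5%, the others being Dlg2 and Epb41l3, both with a fold of 1.16.

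The calmodulin genes Calm3 and Calm2, whose identical proteins bind Kv7 and small-conductance calcium-activated channels, went in different directions before the correction for GC content and length. Calm3 had 1299 and 1359 counts in anti-miR132-3p cells against 622 and 618 counts in scramble cells, a fold of 2.24 (2.10 to 2.40). Calm2 was called lower (fold 0.765) and turned to a fold of 1.04 with the correction for GC content and length. Among the HCN channels, which carry an inward current on hyperpolarisation, Hcn3 was rare, with 11 and 19 counts in anti-miR132-3p cells against 5 and 4 in scramble cells, a fold of 3.49 (1.62 to 8.36). Its libraries did not overlap between groups. Pex5l, an HCN-binding protein, had 103 and 112 counts in anti-miR132-3p cells against 83 and 77 in scramble cells, a fold of 1.41 (1.14 to 1.74). Abcc8, the sulfonylurea receptor of ATP-sensitive channels, had 14 and 12 counts in anti-miR132-3p cells against 4 and 7 in scramble cells, a fold of 2.48 (1.18 to 5.55). Abcc8 and Cntn2 lost their call with the correction. Gnb5 was also called lower (fold 0.881). Calm2, Gnb5, Dlg2 and Epb41l3 were named after their values had been seen.

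Markers of other retinal cells moved with the groups, and their part in the Kcn differences was not tested. All 12 ganglion cell markers had counts and summed to 2200 and 2140 CPM in anti-miR132-3p cells and 2000 and 2010 CPM in scramble cells, with 3 of 11 tested called higher, against 13.5% of all genes tested, and 2 called lower, against 10.4%. Of 9 amacrine markers 6 had counts, and they summed to 904 and 921 CPM in anti-miR132-3p cells and 669 and 639 CPM in scramble cells. Of the 5 tested amacrine markers 4 were called higher, against 13.5% of all genes tested, and 0 lower, against 10.4%. Gad2 had the most counts of the amacrine markers, and Gad1, Slc32a1 and Tfap2b were at 0. The 8 Müller glia markers, all with counts, summed to 2320 and 2330 CPM in anti-miR132-3p cells and 1770 and 1780 CPM in scramble cells. Most of that was Dkk3, with 5577 counts in anti-miR132-3p cells and 3955 in scramble cells, and 3 of the 6 tested had a fold above 1. Dkk3 and Apoe were the 2 called higher, against 13.5% of all genes tested, and 0 were called lower, against 10.4%. Apoe had 218 counts in anti-miR132-3p cells and 69 in scramble cells. Rlbp1, a defining marker, had 26 counts in anti-miR132-3p cells and 44 in scramble cells and was not called. Kcnj10, the glial Kir channel, had 3 counts in anti-miR132-3p cells and 0 in scramble cells. Of 8 rod markers 6 had counts, with Gnat1 among those at 0, and they summed to 29.0 and 26.7 CPM in anti-miR132-3p cells and 104 and 98.5 CPM in scramble cells. Of the 4 tested rod markers 3 were called lower, against 10.4% of all genes tested, and 0 higher, against 13.5%. The 8 microglia markers, all with counts, summed to 15.1 and 22.1 CPM in anti-miR132-3p cells and 1.66 and 1.11 CPM in scramble cells. The 4 astrocyte markers held 47 counts in anti-miR132-3p cells and 82 in scramble cells. The 5 cone markers held 13 counts in anti-miR132-3p cells and 71 in scramble cells. In bulk RNA, more cells of a type and more RNA per cell cannot be told apart.

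The remaining 53 Kcn genes had too few counts to test and held 1.66% of all Kcn counts, 190 in anti-miR132-3p cells and 209 in scramble cells. Of these, 42 were detected, none with more than 34 counts over the 4 libraries, and 11 were at 0, among them Kcnq1, Kcnh3 and Kcnj4. A count of 3 in 1 library corresponds to 1.73 CPM in anti-miR132-3p cells and 1.62 to 1.63 CPM in scramble cells, and a gene at 0 counts may lie anywhere up to that level. None of the 5 Kcne, 4 Kcng and 4 Kcnmb genes was tested. Kcna3, the Kv1 subunit best known from lymphocytes, had 5 counts in anti-miR132-3p cells and 14 in scramble cells, unlike the tested Kcna genes in the side of its counts. Kcnj2, a classical inward rectifier, had 7 counts in anti-miR132-3p cells and 15 in scramble cells. Among these untested genes are some channels typical of other retinal cells, and their low counts do not measure the purity of the cells. Kcnv2, of photoreceptors, had 0 counts in anti-miR132-3p cells and 5 in scramble cells, Kcnk13, of microglia, 0 and 4, and Kcnj13, of the pigment epithelium, 5 and 1, in the same order of groups. Exons of the opposite-strand gene Gigyf2 cover 49.1% of the exon length of Kcnj13. Gigyf2 had 374 counts in anti-miR132-3p cells and 392 in scramble cells.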

How the data were processed

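Gene-level counts, whole numbers per Ensembl gene, were deposited by the authors for 4 libraries. Tools listed in the submitters' processing notes are Trimmomatic 0.39, HISAT2 2.2.1, SAMtools 1.10 and the Cufflinks suite with Cuffnorm and Cuffdiff, and the build GRCm39. Which counter, annotation release and strand setting were used is not given in the sources used here. Overlapping genes therefore cannot be told apart. Per the labels' protocols, reads were paired, of 100 bases, from polyadenylated RNA.

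Symbols were found for 51486 identifiers through GENCODE M21, of an older build, which also gave lengths, GC content and 3′ untranslated regions. Counts were tested in R 4.3.3 with edgeR 4.0.16 (filterByExpr, TMM, glmQLFit, glmQLFTest) over all 4 libraries with no covariate. Folds are ratios of TMM-scaled CPM of counts summed over a pair. For the correction of GC content and length, splines with 4 degrees of freedom were fitted per library. DESeq2 1.42.0, limma 3.58.1 and other settings were alternatives. On counts simulated with sampling noise alone, over 11183 genes, the test recovered 20.4%, 38.0%, 64.6% and 93.9% of genes changed 1.25, 1.5, 2 and 4-fold. It made 2 false calls. The simulation held no variation between animals, so these rates do not apply to a comparison of the conditions.

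Values per library are given for the called Kcn genes, some of which are not reported here, the Kcn gene highest per length in each class and up to 6 called partner genes by size of fold. Kcn genes, partner and marker lists were chosen with earlier results of these data known. The labels do not state whether both libraries of a group were made from separate animals.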

Additional observations from a re-analysis of the deposited data

How the results depend on the processing

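Leaving out 1 library gave 0 calls for all genes, Kcn genes and partner genes, in either direction (ranges 0 to 0), and each such fit assumes that the lone library varies like the other group. Over all genes, higher and lower calls numbered 1540 and 1183, against 481 and 274 with DESeq2, 1 and 2 with no low-count filter, and 856 and 547 at an adjusted p under 0.01. Summing the pairs and assuming a coefficient of variation of 0.1 or 0.2, chosen after seeing the data, gave 470 and 56, or 50 and 6. The 16 Kcn genes called higher became 8 with DESeq2 (Kcna1, Kcna4, Kcna5, Kcna6, Kcnab3, Kcnc1, Kcnc2 and Kcnip3), 0 with no filter, and 5 or 0 at the assumed variation of 0.1 (Kcna4, Kcna5, Kcnab2, Kcnab3 and Kcns2) or 0.2. The single gene called lower, Kcnd2, was not called (0 genes) with library totals, no filter, 20 CPM in 2 libraries, DESeq2, limma-voom, either assumed variation or an adjusted p under 0.01.

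The 9 partner genes called higher became 3 with DESeq2, 0 with no filter, 3 at an adjusted p under 0.01, and 2 or 0 at the assumed variation. The 4 called lower became 2 with library totals, DESeq2, the correction for GC content and length or an adjusted p under 0.01, and 0 with no filter or at either assumed variation. The correction moved the Kcn median log2 fold change to 0.15 (0.31 to 0.37 without 1 library) and reversed Kcnj9 (-0.11) and Calm2 (0.06). Kcn genes at least 1.5-fold higher numbered 10 (10 to 14 without 1 library), 21 with no filter and 1 at 2-fold. Those at least 1.5-fold lower numbered 2 (2 to 3 without 1 library), 19 with no filter, 0 with 20 CPM in 2 libraries and 0 at 2-fold. The cause was not tested.

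The deviations of same-numbered libraries had a correlation of 0.013 over 11427 genes. The libraries of a group differed by no more than sampling noise, so this value cannot show whether replicate numbers pair the libraries. With a replicate block, 1740 genes were called higher and 1437 lower, with 16 and 1 for Kcn genes and 9 and 4 for partner genes. The block with the correction called 12 Kcn genes higher and 2 lower, 2 partner genes lower, and again gave -0.11 for Kcnj9 and 0.06 for Calm2. The summed Kcn fold of 1.25 ran from 1.24 to 1.27 without 1 library.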
